A study of Mus musculus with 11 samples.

Results

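The genes described here encode the proteins of the cytosolic ribosome. They were chosen by symbol, as all symbols that begin with Rpl or Rps followed by a digit plus Rplp0, Rplp1, Rplp2 and Rpsa, without the -ps pseudogene loci and without the Rps6k kinases. This gave 93 of the 55421 genes counted, 38 with small-subunit and 55 with large-subunit symbols, and left out 309 -ps loci and 10 Rps6k kinase genes. The symbols include 6 that are not ribosomal protein genes in the annotation: Rps19bp1, which encodes a protein that binds Rps19, and Rpl6l, Rps12l1, Rps3a2, Rps3a3 and Rps4l, which RefSeq lists as pseudogenes. The study measured ribosome-bound RNA of the cerebellum at postnatal day 56 in 11 RNA sequencing libraries. Of these, 4 came from knockout (KO) mice of the genotype Pcp2Cre;Tie2flox/flox;Rpl22HA/HA and 7 from control (WT) mice of the genotype Pcp2Cre;Rpl22HA/HA. Both groups carried the constitutive Cre under the Pcp2 promoter and both copies of the taggable Rpl22 allele, so neither group has an untagged ribosome as a comparison. Tie2, encoded by Tek, is a receptor tyrosine kinase for angiopoietins, and the comparison asks how RNA on Purkinje cell ribosomes differs without it.

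A cytosolic ribosome is built from a small subunit, which reads the mRNA, and a large subunit, which joins amino acids. Most ribosomal proteins are needed in equal numbers, and their mRNAs typically begin with a C followed by a run of pyrimidines, the terminal oligopyrimidine tract through which mTOR and the RNA-binding protein Larp1 adjust their translation. In the RiboTag method, Cre replaces the last exon of Rpl22 by a tagged one in the cells that express it, here Purkinje cells, whose ribosomes are then precipitated from the homogenised cerebellum by their tag. Rpl22 is therefore both a gene of the list and the handle of the assay, and counts per gene do not separate tagged from untagged Rpl22 transcripts.

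The libraries differed in depth between the groups. Reads in genes came to 3.40 and 3.35 M in KO F371 and M374 and 4.19 M in WT M379 of batch 1, and to 4.20 M in KO M390 and 4.34 M in WT M386 of batch 2. In batch 3 they came to 2.58 M in KO M456 and 4.09 to 5.14 M in WT F473, M476, M477, M479 and M480. Tek had 0 to 14 reads in KO libraries and 0 to 40 in WT libraries, so its level does not separate the groups. Summed Purkinje cell markers came to 4806 to 6550 CPM (reads per 1 M reads in genes, scaled with TMM factors) in KO libraries and 4894 to 5636 in WT libraries, so the labelled cell type was present in both. WT M476 stands apart from the other WT libraries in the reads of the ribosomal protein genes, and results that rest on it are given with and without it.

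All 93 genes together took 0.357% and 0.374% of the reads in genes in KO F371 and M374, 0.337% in KO M390 and 0.326% in KO M456. In the WT libraries the share was 0.330% in M379, 0.313% in M386, 0.280% in F473, 0.379% in M476, 0.277% in M477, 0.276% in M479 and 0.261% in M480. All KO libraries lay above F473, M477, M479 and M480, while M476 lay above every KO library. The group means were 0.349% ± 0.0211 in KO (SD, n = 4) and 0.302% ± 0.0414 in WT (SD, n = 7), and WT without M476 averaged 0.289% ± 0.0261 (SD, n = 6). Within batches the KO share was higher by 0.0358 percentage points in batch 1, 0.0245 in batch 2 and 0.0316 in batch 3. Each was less than the SD of 0.0414 between all WT libraries, which pools the 3 batches and M476. The SD of 0.0261 without M476 lay below the batch 1 and batch 3 differences and above that of batch 2. Neither SD is the spread within a batch. Without M476 the batch 3 difference was 0.0527 percentage points, at 0.326% in KO M456 and a mean of 0.273% in the other 4 WT libraries. With all WT libraries but without the 6 symbols that are not ribosomal protein genes, KO was higher by 0.0320, 0.0233 and 0.0309 percentage points in batches 1, 2 and 3. In bulk samples, fewer cells of a type and less RNA per cell cannot be told apart.

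**Figure D1:**
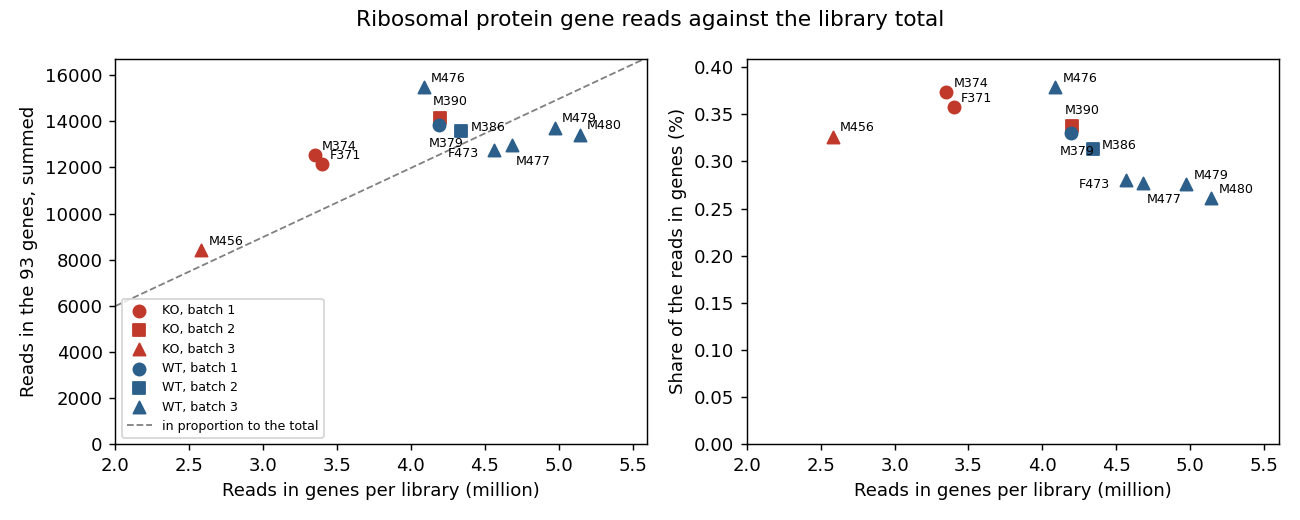
Reads summed over the 93 ribosomal protein genes (left) and their share of the reads in genes in percent (right) against reads in genes per library in M, for 4 KO libraries (red) and 7 WT libraries (blue), with the batch given by the symbol. The dashed line shows a count in proportion to the total, at the ratio of all WT reads pooled. WT libraries between 4.09 and 5.14 M reads hold 12774 to 15485 reads of these genes, and their share is lowest, at 0.261%, in the deepest library, M480.

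Between KO and WT, 7 ribosomal protein genes differed. Of the 93, 83 had enough reads to be tested, and 7 of these (8.43%) passed an adjusted p of 0.05 in edgeR's quasi-likelihood test with batch and genotype, 5 higher and 2 lower in KO, while 24.4% of all 13375 tested genes passed, 10.9% higher and 13.4% lower. Rpl27a, Rpl22, Rpl37a, Rpl15 and Rps15a rose, and Rpl10a and Rpl28 fell. The median log2 fold change was 0.04 over the 83 genes and -0.02 over all tested genes, and 43 of the 83 were above 0. An unadjusted p under 0.05 in edgeR was found for 22 of the 83, against 5285 of all 13375 tested genes. Among genes with small-subunit symbols 1 of 34 was called, with a median of 0.22. Among those with large-subunit symbols 6 of 49 were called, with a median of -0.04. The 34, and so the 83, include Rps19bp1 and Rps4l, which are not ribosomal protein genes. The range of log2 fold changes ran from -1.78 for Rpl10a to 1.10 for Rpl27a.

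These counts depended on single libraries. Of the 5 higher and 2 lower genes, 1 and 0 were left without KO M456 and also without WT M379, the only WT library of batch 1, where 335 and 522 genes of all were called. Without WT M476 there were 14 higher and 2 lower, or 19.3% called against 30.7% of all tested genes. Without KO M390 or WT M386, the pair of batch 2, there were 11 higher and 7 lower. These were 21.7% of the 83, against 33.8% and 34.8% of all tested genes. The 22 genes at an unadjusted p under 0.05 in edgeR were 4 without KO M456 and 11 without WT M379. Calls over all tested genes fell as well, from 24.4% in the main fit to 2.43% without KO M456 and 3.93% without WT M379. The count of higher genes was 3 without KO M374, WT M477, WT M479 or WT M480 and 2 without WT F473. In these 5 fits 19.3% to 20.9% of all tested genes were called in either direction. With the library total as a covariate, 0 of the 83 and 0 of the 13375 genes passed in edgeR, and 4 of the 83 had an unadjusted p under 0.05. The count over all tested genes at that unadjusted p is not given. Depth is largely confounded with genotype in these libraries, so that fit cannot tell them apart.

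Rpl27a, a large-subunit protein, was the only gene of the list that lay above all WT libraries in raw reads as well as in CPM. It is encoded on chromosome 7 (GRCm38, 109519195 to 109522369, plus strand; ENSMUSG00000046364). It had 406, 414, 360 and 354 reads in KO F371, M374, M390 and M456, against 212, 247, 228, 306, 255, 292 and 250 reads in WT M379, M386, F473, M476, M477, M479 and M480. All KO libraries held more reads of it than any WT library, although 3 of the 4 were shallower than every WT library. Its level averaged 116 ± 23.6 CPM in KO (SD, n = 4) and 56.2 ± 7.34 CPM in WT (SD, n = 7), with a log2 fold change of 1.10 ± 0.16 (SE, edgeR adjusted p = 0.00194). Within batches the log2 ratio of mean CPM was 1.23, 0.57 and 1.30 in batches 1, 2 and 3. The call held when any of the 11 libraries was left out, with fold changes of 0.95 to 1.30 and a highest edgeR adjusted p of 0.0471. It was lost with the library total as a covariate, at 0.70 and an edgeR adjusted p of 0.250. In that fit 0 of all 13375 tested genes passed. The total is largely confounded with genotype, so this loss does not separate the genotype from the depth.

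Rpl22, the large-subunit protein that carries the tag, had 228, 206, 171 and 239 CPM in KO F371, M374, M390 and M456, against 167, 167, 173, 161, 168, 176 and 149 CPM in WT M379, M386, F473, M476, M477, M479 and M480. KO M390 lay among the WT libraries and the other 3 KO libraries lay above them. The group means were 211 ± 30.1 CPM in KO (SD, n = 4) and 166 ± 8.79 CPM in WT (SD, n = 7), with a log2 fold change of 0.36 ± 0.11 (SE, edgeR adjusted p = 0.0252). In raw reads the groups overlapped, at 599 to 791 in KO and 695 to 863 in WT. By batch the log2 ratio was 0.38, 0.03 and 0.53 for batches 1, 2 and 3. The call was lost without KO M456 (0.23, edgeR adjusted p = 0.313) and without WT M379 (0.37, edgeR adjusted p = 0.0990).

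Rpl22l1, the paralogue that can take the place of Rpl22 in the ribosome, had 72, 105, 77 and 53 reads in KO F371, M374, M390 and M456 and 73 to 89 reads in WT libraries, with a median of 80. KO libraries lay both above and below the WT range. In log2 terms KO minus WT came to 0.27 ± 0.24 (SE, edgeR adjusted p = 0.433). Rpl22l1 made up 8.34%, 13.1%, 9.58% and 8.13% of the reads of the pair in KO F371, M374, M390 and M456, and between 8.48% and 10.9% in WT libraries. The mean share was 9.78% ± 2.28 in KO (SD, n = 4) and 9.62% ± 1.02 in WT (SD, n = 7), a difference smaller than either SD. For KO M374, the highest library, the 95% Wilson interval was 10.9% to 15.6%, and for WT M476, the highest WT library, it was 8.90% to 13.3%, so the intervals, which cover counting error only, overlap.

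Rpl37a, a large-subunit protein with a zinc finger, had 77.0, 81.3, 46.1 and 80.3 CPM in KO F371, M374, M390 and M456, against 38.6 to 62.2 CPM in WT libraries, with a median of 44.8. KO M390 lay inside the WT range, and the change on the log2 scale was 0.62 ± 0.19 (SE, edgeR adjusted p = 0.0280). Rpl15, a core protein of the large subunit, had 136, 145, 124 and 134 CPM in KO F371, M374, M390 and M456, against 72.4 to 117 CPM in WT libraries, with a median of 93.9. The groups did not overlap, and the fitted log2 change was 0.39 ± 0.13 (SE, edgeR adjusted p = 0.0418). Rps15a, the only small-subunit gene called, had 55.1, 74.6, 60.4 and 71.1 CPM in KO F371, M374, M390 and M456, against 40.7 to 52.6 CPM in WT libraries, with a median of 46.1. These groups did not overlap either, at a log2 change of 0.48 ± 0.17 (SE, edgeR adjusted p = 0.0478). In batch 2, where both libraries had nearly the same total, the log2 ratios were 0.09 for Rpl37a, 0.08 for Rpl15 and 0.22 for Rps15a, against 0.34 to 0.79 in batches 1 and 3. The Rpl37a call was lost without KO M456, WT M379 or WT F473 (edgeR adjusted p = 0.271, 0.152 and 0.0502), and those of Rpl15 and Rps15a without any of 7 of the 11 libraries, the lowest fold changes being 0.23 and 0.38 without KO M456.

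Rpl10a and Rpl28 fell. Rpl10a, which forms the mobile L1 stalk beside the exit path of the tRNA, had 10, 14, 67 and 12 reads in KO F371, M374, M390 and M456, against 101, 86, 78, 125, 59, 76 and 80 reads in WT M379, M386, F473, M476, M477, M479 and M480. KO M390 lay inside the WT range, and the other 3 KO libraries lay far below it. The means were 6.89 ± 5.96 CPM in KO (SD, n = 4) and 19.2 ± 5.62 CPM in WT (SD, n = 7), with a log2 fold change of -1.78 ± 0.42 (SE, edgeR adjusted p = 0.00887). By batch its log2 ratio came to -2.62, -0.32 and -1.81 for batches 1, 2 and 3. Rpl28, a large-subunit protein without a counterpart in budding yeast, had 81, 92, 118 and 28 reads in KO F371, M374, M390 and M456, against 191, 167, 118, 165, 103, 122 and 119 reads in WT M379, M386, F473, M476, M477, M479 and M480. The groups overlapped, and KO M456 was lowest. Rpl28 averaged 22.4 ± 7.69 CPM in KO (SD, n = 4) and 31.4 ± 9.26 CPM in WT (SD, n = 7), with a log2 fold change of -0.89 ± 0.25 (SE, edgeR adjusted p = 0.0197). Both calls were lost without KO M456 (edgeR adjusted p = 0.0893 for Rpl10a and 0.173 for Rpl28) and without WT M379 (0.166 and 0.114), and without M379 the Rpl10a change was -1.15. The Rpl28 call was also lost without the batch term, at -0.48 (edgeR adjusted p = 0.239).

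**Figure D2:**
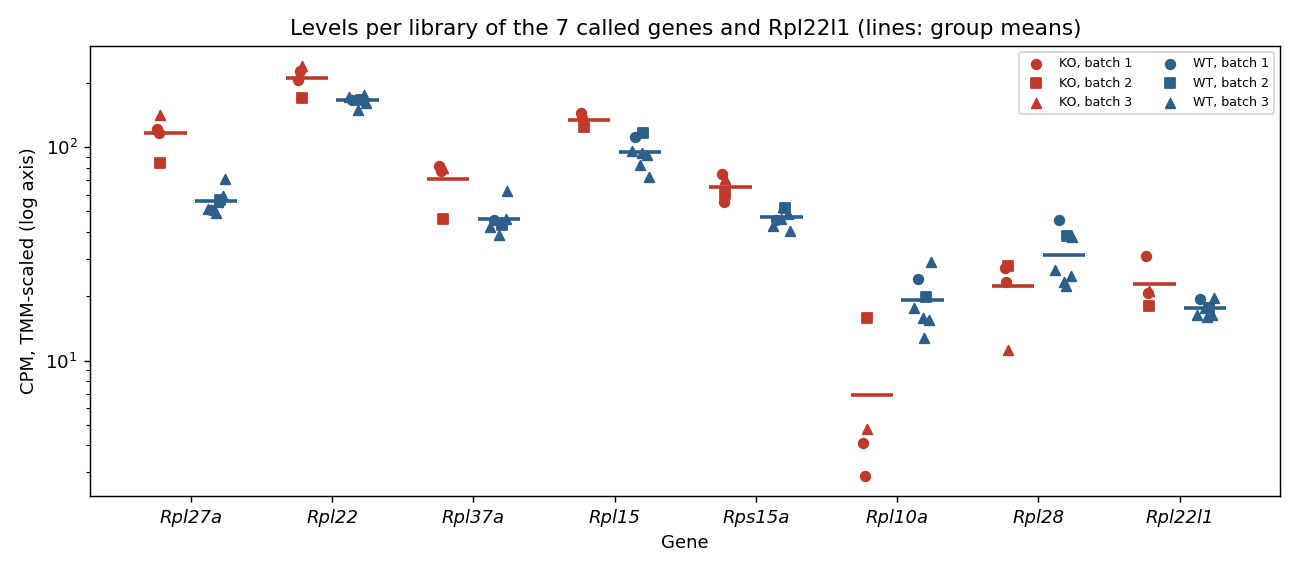
Level per library, in TMM-scaled CPM on a log axis, of the 7 genes called between KO (red, left of each pair, n = 4) and WT (blue, right, n = 7) and of Rpl22l1, which was not called. Symbols give the batch and horizontal lines the group means. For Rpl27a the lowest KO library, M390 at 84.7 CPM, lies above the highest WT library at 70.7 CPM, and in Rpl10a the same KO library lies inside the WT range.

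The start sequences of these genes are shown because the pyrimidine tract at the first bases is the feature known to mark ribosomal protein mRNAs, and the called genes differ in it. Each run holds 15 bases before and 15 from the start that RefSeq annotates on GRCm38.p6, read 5′ to 3′ on the gene's strand, and capitals mark a stretch of at least 5 C or T, counted from the C within 5 bases of that start that gives the longest stretch. Pyrimidines further upstream are not counted, as in Rpl35, where 2 more C precede the capitals. Rpl35 is added as the gene with the most even reads (given with the WT libraries), and Rpl22 and Rpl10a have a pair of starts each.
Rpl27a (chr7:109519180-109519209, plus strand): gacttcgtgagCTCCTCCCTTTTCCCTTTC
Rpl15 (chr14:18270972-18271001, minus strand): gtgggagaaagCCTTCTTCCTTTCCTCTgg
Rps15a (chr7:118116133-118116162, minus strand): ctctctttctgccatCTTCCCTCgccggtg
Rpl28 (chr7:4792950-4792979, plus strand): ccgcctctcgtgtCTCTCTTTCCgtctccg
Rpl35 (chr2:39005117-39005146, minus strand): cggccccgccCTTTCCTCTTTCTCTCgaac
Rpl22l1 (chr3:28805493-28805522, plus strand): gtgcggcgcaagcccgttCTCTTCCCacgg
Rpl37a (chr1:72711245-72711274, plus strand): ttccgctcgccggtctaaaaccgcgcatgc
Rpl22, upstream start (chr4:152324421-152324450, plus strand): cgctgcttctggaatgttccagctcccact
Rpl22, downstream start (chr4:152325711-152325740, plus strand): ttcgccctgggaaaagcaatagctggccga
Rpl10a, upstream start (chr17:28328456-28328485, plus strand): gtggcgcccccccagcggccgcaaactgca
Rpl10a, downstream start (chr17:28328550-28328579, plus strand): gctctatttgagcgcatgcgcaaagcgctc
Of the 93 genes, 68 had an entry in the RefSeq promoter table, and 31 of these (45.6%) held such a tract, against 5718 of 27025 genes (21.2%) in the whole table. With at least 8 pyrimidines the shares were 32.4% and 5.17%. Of the 7 called genes 4 held a tract, 3 that rose (Rpl27a, Rpl15 and Rps15a) and 1 that fell (Rpl28). A match is a description of the annotated start, and no match says only that these letters are not in this window.

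Within batches the genes of the list spread in both directions. The median log2 ratio of KO over WT was 0.10, 0.06 and 0.08 for batches 1, 2 and 3, against 0.01, -0.00 and -0.06 for all tested genes. The quartiles were -0.22 and 0.35 in batch 1, -0.03 and 0.18 in batch 2 and -0.44 and 0.42 in batch 3, and for all tested genes they were -0.52 and 0.50, -0.25 and 0.22, and -0.66 and 0.45. The spread was thus smallest in batch 2 for both. Across the 3 batches 31 of the 83 genes (37.3%) were higher in KO each time and 14 (16.9%) were lower each time, against 23.4% and 25.1% of all tested genes. In the edgeR test of the batch by genotype interaction, 0 of the 83 genes and 0% of all tested genes passed the threshold. Unadjusted p-values under 0.05 were found for 3 of the 83 (Rpl30, Rpl31 and Rpl10a) and 2306 of all genes, and limma-voom also called 0 of the 83.

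**Figure D3:**
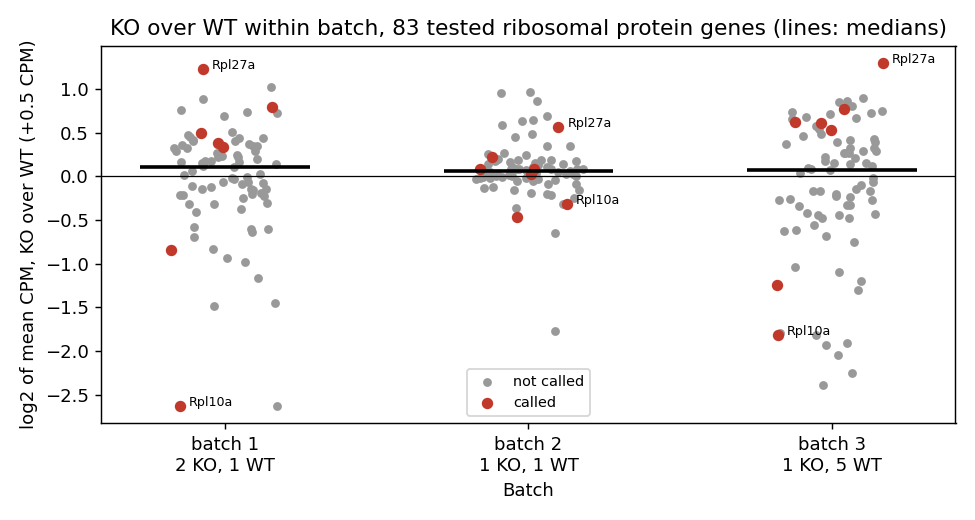
Log2 ratio of mean CPM in KO over WT within each batch, with 0.5 CPM added, for the 83 tested ribosomal protein genes. Each point is a gene, red points are the 7 called genes and black lines are the medians of 0.10, 0.06 and 0.08. Points lie closest together in batch 2, with 1 KO and 1 WT library, where Rpl10a is at -0.32 against -2.62 and -1.81 in the other batches.

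In CPM, 7 genes had no overlap between the groups with KO higher (Rpl15, Rpl27a, Rpl35, Rps14, Rps15a, Rps20 and Rpsa) and 0 with KO lower, while 6.2% of all tested genes were higher without overlap and 6.74% lower. In raw reads the picture was different, with Rpl27a alone higher without overlap and Rpl18, Rps15 and Rps2 lower, against 0.471% of all tested genes higher and 14.0% lower. Rps15, a small-subunit protein, had 150 to 213 reads in KO libraries and 214 to 270 in WT libraries, yet 48.0 to 59.9 CPM in KO and 43.4 to 62.4 CPM in WT. Reads in genes averaged 3.38 ± 0.660 M in KO libraries and 4.57 ± 0.394 M in WT libraries (SD, n = 4 and 7), and the levels of Rps15 overlapped after scaling to these totals.

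The stalk of the large subunit, which recruits translation factors, is made of Rplp0 and dimers of Rplp1 and Rplp2. Rplp1 had 162, 156, 160 and 141 reads in KO F371, M374, M390 and M456 and 144 to 175 reads in WT libraries, with a median of 151. Read counts of the groups overlapped and differed little in spite of the different totals, and its level changed by 0.45 ± 0.19 in log2 CPM (SE, edgeR adjusted p = 0.0923). Rplp2 had 171, 168, 161 and 156 reads in KO F371, M374, M390 and M456 and 144 to 223 reads in WT libraries, with a median of 151, and a log2 fold change of 0.51 ± 0.20 (SE, edgeR adjusted p = 0.0692). Rplp1 and Rplp2 passed the threshold without WT M476 (edgeR adjusted p = 0.0456 and 0.0184) and without KO M390 or WT M386. Rplp0, their anchor, had 162 to 281 reads in KO libraries and 271 to 357 in WT libraries, and a log2 fold change of -0.12 ± 0.16 (SE, edgeR adjusted p = 0.607). Rpsa, a small-subunit protein also known as the laminin receptor, had 19.3, 13.0, 12.2 and 13.2 CPM in KO F371, M374, M390 and M456, against 7.60 to 10.2 CPM in WT libraries, with a median of 8.28. The groups did not overlap, and its log2 fold change of 0.66 ± 0.31 did not pass (SE, edgeR adjusted p = 0.125). With the reads of its 12 -ps loci added it passed, at 0.84 (edgeR adjusted p = 0.0441).

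None of the other paralogue pairs examined (Rps27 and Rps27l, Rpl36a and Rpl36al, Rpl7 and Rpl7l1, Rpl3 and Rpl3l, Rps4x and Rps4l, Rpl39 and the untested Rpl39l) gave a call between KO and WT in edgeR. Rps27l, a paralogue of Rps27 known as a target of p53, averaged 61.2 ± 8.42 CPM in KO and 47.3 ± 7.97 CPM in WT (SD, n = 4 and 7), and Rps27 averaged 17.6 ± 6.31 CPM in KO and 15.9 ± 4.90 CPM in WT. Rpl36a and Rpl36al averaged 37.7 ± 7.43 and 15.1 ± 4.60 CPM in KO and 34.5 ± 7.79 and 13.1 ± 3.25 CPM in WT. Rpl7l1, a relative of Rpl7 in ribosome assembly, was at 171 ± 29.8 CPM in KO and 153 ± 18.5 CPM in WT, and Rpl7 at 27.6 ± 3.03 CPM in KO and 27.1 ± 2.44 CPM in WT. These levels are not scaled to length, so they compare groups and not genes. Rpl3l, a striated muscle paralogue of Rpl3, had 1 to 22 reads in KO libraries and 4 to 40 in WT libraries, while Rpl3 had 28 to 50 in KO and 50 to 61 in WT. The X-linked Rps4x averaged 9.91 ± 1.48 CPM in KO and 11.3 ± 1.57 CPM in WT, and Rps4l, listed as a transcribed pseudogene, 60.9 ± 5.65 CPM in KO and 76.3 ± 18.4 CPM in WT.

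Of the 93 genes, 10 had too few reads to be tested. Rpl10l, a testis paralogue of Rpl10, and the pseudogene Rps12l1 had 0 reads in all 11 libraries. Rpl10, an X-linked gene for a protein of the large subunit needed for subunit joining, had 0, 0, 7 and 1 reads in KO F371, M374, M390 and M456 and 7 to 19 in WT libraries. Counts of genes with near-identical copies are uncertain, and -ps loci carry the symbol of Rpl10 in 6 cases, Rps15a in 8, Rpl15 in 5, Rpl28 in 4, Rpl10a in 3 and Rpl27a in 2. Rpl39 averaged 27.0 ± 6.11 CPM in KO and 22.4 ± 5.13 CPM in WT, and its paralogue Rpl39l had 32 reads over the 11 libraries. Rpl32l, Rpl37rt, Rpl6l, Rps27rt and Rps3a2 had 5 to 62 reads over all libraries, and Rps3a3 had 70, of which 53 fell in a single library, KO M456. Over the 11 libraries, the median read count was 1438 for genes with 0 or 1 -ps locus, 796 for those with 2 to 4 and 600 for those with 5 or more.

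In the 7 WT libraries alone, summed reads of the ribosomal protein genes did not grow in proportion to the library total. The summed reads of the 93 genes were 15485 in M476, 13821 in M379, 13579 in M386, 12774 in F473, 12955 in M477, 13732 in M479 and 13422 in M480, in order of rising total. The shallowest WT library, M476, held the most and the other 6 lay within 12774 to 13821. Their share of all reads went down with each step in total, with a Pearson r of -0.899 and a Spearman rho of -1 against the log2 total (n = 7 libraries, given as a description). Pearson's r was -0.904 without M476 and M480, the libraries farthest from the median total, -0.905 in the 5 WT libraries of batch 3 and -0.927 without M476 (n = 6). A share has the total as its denominator. For the summed reads themselves r was -0.551, rho was -0.571 and r without M476 and M480 was -0.224. With M476 alone left out r was -0.140 (n = 6), and it was 0.211 when M379 and M480 were left out too. In the 4 WT libraries of batch 3 other than M476, r was 0.855. The direction of the relation of the sum to the total thus depends on which libraries are included.

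Gene by gene, the level in log2 CPM was fitted against the log2 library total over the 7 WT libraries. A slope of 0 is a count in proportion to the total, and a slope of -1 is a count that stays the same while the total doubles. Of the 80 genes with enough WT reads, 77 had a slope below 0 (96.2%), against 47.3% of all 11509 tested genes, and 60 (75%) had a slope below -1, against 21.6% of all. The median slope was -1.43 with quartiles of -2.01 and -1.0, and the median over all genes was 0.09. Genes with small-subunit symbols had a median of -1.43 and those with large-subunit symbols of -1.39. Only Rps20, Rps15a and Rpl5 had slopes above 0, at 0.20, 0.35 and 1.27.

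No single slope passed the threshold. On simulated counts this fit called 0 of 100 genes with an absolute slope of 2, so a missing call does not show a slope of 0. In edgeR 0 of the 80 genes and 0% of all tested genes had an adjusted p under 0.05, the lowest adjusted p among the 80 being 0.215, and limma-voom also called 0. At an unadjusted p under 0.05, 26 of the 80 genes had slopes below 0 and 0 above, against 9.99% of all tested genes with slopes below 0. That count of 26 was 12 without M379, 13 without M479, 14 without M476, M477 or M480, and 18 without F473. The matching counts over all tested genes are not given for these fits. The median slope was -0.85 without M476, with 65 of the 80 below 0, and -1.74 with batch as a term. Batches 1 and 2 have 1 WT library each, so the slope with that term comes from batch 3 alone, where M476 is the shallowest. Median slopes were -1.29, -1.70 and -1.65 for genes with 0 or 1, 2 to 4 and 5 or more -ps loci. In the same order 71.1%, 87.0% and 68.4% of the slopes were below -1. Pseudogenes without -ps in the symbol, such as Rps3a2 and Rpl6l, are not counted as -ps loci. The part of pseudogene copies in the slopes was not tested.

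**Figure D4:**
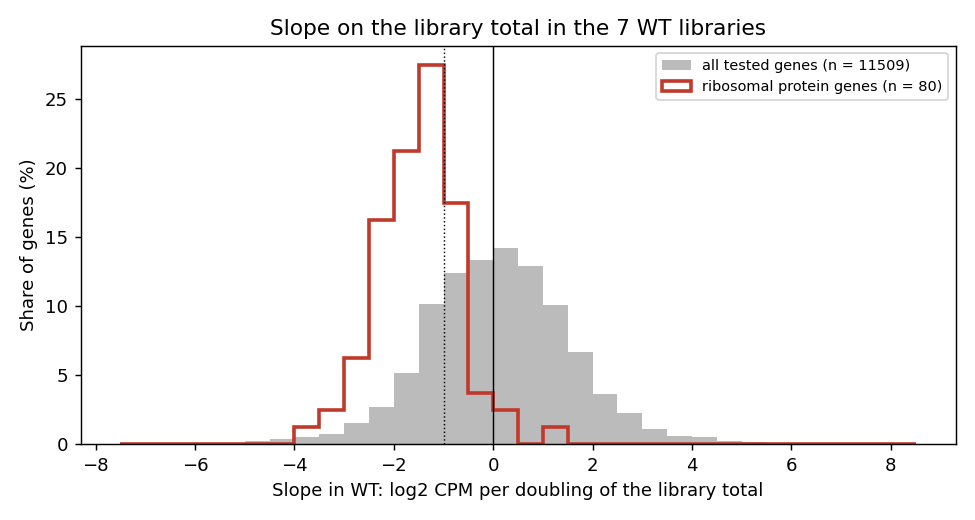
Distribution of the slope of log2 CPM per doubling of the library total in the 7 WT libraries, for all 11509 tested genes (grey) and for the 80 tested ribosomal protein genes (red outline), each in percent of its own genes. The solid line marks a slope of 0 and the dotted line a slope of -1. The ribosomal protein genes centre on -1.43 and the other distribution on 0.09.

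The genes named next were chosen after their values were seen. Rpl37, a large-subunit protein, had 218, 167, 190, 121, 113, 115 and 130 reads in WT M476, M379, M386, F473, M477, M479 and M480, in order of rising total. The 3 shallower libraries held more reads than the 4 deeper ones, and the slope was -3.31 ± 0.84 (SE, edgeR adjusted p = 0.215). The shallower ones are M476 of batch 3 and the only WT libraries of batches 1 and 2, and the deeper ones are all of batch 3. Depth is thus confounded with batch and with M476 in the WT slopes. Rpl28 had 165, 191, 167, 118, 103, 122 and 119 reads in the same order, with a slope of -2.93 ± 0.83 (SE, edgeR adjusted p = 0.215). Its reads were likewise highest in the 3 shallower WT libraries, while it had 28 to 118 reads in the KO libraries. Rpl10a followed with 125, 101, 86, 78, 59, 76 and 80 reads and a slope of -2.73 ± 0.96 (SE, edgeR adjusted p = 0.225). The Rpl10a slope was -1.97 without M476.

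The 5 genes called higher in KO had WT slopes above the median of -1.43 over the 80 genes, Rpl37a and Rpl27a by less than their SE. Rpl22 had a slope of -0.13 ± 0.38 (SE, edgeR adjusted p = 0.887), with 695 reads in the shallowest and 755 in the deepest WT library. Rpl15 was at -0.46 ± 0.69, Rpl27a at -0.74 ± 0.70, Rpl37a at -1.25 ± 0.75 and Rps15a at 0.35 ± 0.64 (SE). None differed from 0 beyond 2 SE. The signs of 3 of them turned with a library left out, to 0.17 for Rpl27a without M476, 0.39 for Rpl22 without M480 and 0.03 for Rpl15 without M480.

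Read counts of several ribosomal protein genes varied little between the WT libraries, and those of Rpl35 varied little over all 11. Rpl35, a large-subunit protein at the exit of the peptide tunnel, had 23, 26, 25 and 23 reads in KO F371, M374, M390 and M456 and 24, 25, 22, 25, 23, 24 and 23 reads in WT M379, M386, F473, M476, M477, M479 and M480. No library departed from 24 by more than 2 reads, while the totals ran from 2.58 to 5.14 M. Its variance over the WT libraries was 0.0522 of its mean, whereas counting error alone gives a value near 1 on average. Whether duplicate reads were removed before counting is not stated, and its part in these ratios and in the slopes was not tested. Rpl3 was at 0.197, Rps3a1 at 0.281 and Rpl7 at 0.284 in WT. Rpl4, among the most counted of the list, had 769 to 814 reads in the 7 WT libraries, a variance over mean of 0.357, but 369 to 800 reads in the KO libraries. In all, 14 of the 83 genes (16.9%) had a variance below the mean in WT, against 2.83% of all tested genes, and the median ratio was 2.57 against 7.77. The trait is not particular to them, since 4 of the 15 translation factors (26.7%) and 2 of the 12 Purkinje cell markers (16.7%) described further on had it too. Counting error depends on the level, and the 83 genes had a median of 1132 reads over the 11 libraries against 2069 for all tested genes.

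**Figure D5:**
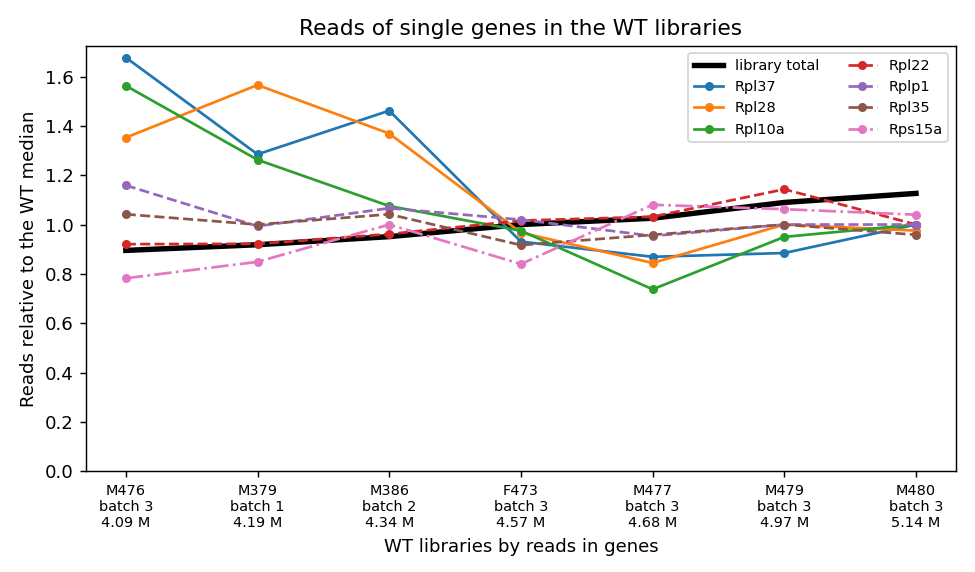
Raw reads of 7 ribosomal protein genes in the WT libraries, each divided by its own WT median and ordered by reads in genes per library, with the library total as the black line. Solid lines are Rpl37, Rpl28 and Rpl10a, dashed lines Rpl22, Rplp1 and Rpl35, and the dash-dotted line Rps15a. The total rises from left to right while Rpl35 stays at 22 to 25 reads and Rpl37, Rpl28 and Rpl10a are highest in the 3 shallower libraries.

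Other genes of the same machinery were compared by lists. Fau, which encodes a ribosomal protein fused to a relative of ubiquitin, and Rack1, a scaffold on the small subunit, gave no call. Of 15 translation factors and related genes, listed for mRNAs described elsewhere as carrying pyrimidine tracts, 2 rose and 2 fell, with a median of -0.05. Their 4 calls (26.7%) stand near the 24.4% of all tested genes. By the rule used for the start sequences, 3 of the 9 with a promoter entry (33.3%) held a tract. The elongation factor subunit Eef1b2 averaged 182 ± 17.8 CPM in KO and 134 ± 8.60 CPM in WT, with a log2 fold change of 0.41 ± 0.11 (SE, edgeR adjusted p = 0.0129). The translocation factor Eef2 averaged 229 ± 41.9 CPM in KO and 319 ± 29.2 CPM in WT, with -0.35 ± 0.10 (SE, edgeR adjusted p = 0.0182). The nucleolar chaperone Npm1 rose by 0.52 ± 0.15 (SE, edgeR adjusted p = 0.0196), and Tpt1, a growth-related gene with a classical tract, fell by 0.83 ± 0.28 on the log2 scale (SE, edgeR adjusted p = 0.0406). The median WT slope of this list was -0.72, between that of the ribosomal proteins and 0.

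Of 32 ribosome assembly genes, 2 rose and 8 fell, or 31.2% called against 24.4% of all tested genes, the median log2 change was -0.21, and their median WT slope was -0.30. The snoRNP protein Nop56 averaged 35.2 ± 20.6 CPM in KO and 77.8 ± 10.3 CPM in WT, with a log2 fold change of -1.42 ± 0.23 (SE, edgeR adjusted p = 0.00232). Bop1, needed for maturation of the large-subunit rRNA, averaged 50.9 ± 11.2 CPM in KO and 95.8 ± 21.1 CPM in WT, with -0.68 ± 0.17 (SE, edgeR adjusted p = 0.0123). The methyltransferase Fbl had -2.65 ± 0.72 (SE, edgeR adjusted p = 0.0162), at 0.862 ± 0.614 CPM in KO and 4.18 ± 1.71 CPM in WT. Of 12 genes that control translation through mTOR, 11 were tested, 0 rose and 6 fell, with a median of -0.35, where 13.4% of all tested genes fell. Mtor itself averaged 60.8 ± 20.1 CPM in KO and 127 ± 24.3 CPM in WT, with -0.80 ± 0.15 (SE, edgeR adjusted p = 0.00342). Akt1s1, an inhibitory mTOR partner, changed by -0.91 ± 0.18 and Tsc2, an upstream inhibitor, by -1.14 ± 0.24 (SE, edgeR adjusted p = 0.00393 and 0.00529). The mTOR list had a median WT slope of 0.88. The part of the library total in any of these differences was not tested, and with the total as a covariate 0 genes of any list passed.

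Some markers of other cerebellar cell types were higher in KO, where 10.9% of all tested genes were higher, and the summed levels overlapped between the groups. Of 10 tested granule cell markers 6 rose and 0 fell, with summed levels of 530 to 1544 CPM in KO libraries and 412 to 845 in WT libraries. Of 9 tested Bergmann glia and astrocyte markers 6 rose and 0 fell, at 350 to 1064 CPM in KO and 279 to 495 in WT. The oligodendrocyte list had 2 of 9 higher, the microglia list 3 of 8, the endothelial and mural list 1 of 8, the interneuron list 2 of 4 and the choroid plexus list 2 of 3, with 0 lower in each. Of 12 Purkinje cell markers 4 rose and 1 fell. No marker of any list was at 0 reads over all libraries. Their part in the differences of the ribosomal protein genes was not tested.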

How the data were processed

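RNA from RiboTag pull-downs of whole cerebellum was sequenced by BGI, per the labels' protocols. Per the submitters' processing notes reads were handled with STAR, HTSeq and the GRCm38 build. Versions, strand setting, any removal of duplicate reads and the meaning of the word Filtered in the deposited names are not stated in any label or header. The authors deposited whole-number read counts per gene, not normalized, for 55421 genes and 5 summary lines per library, and those lines stayed out of totals and tests. They held 9.07% ± 2.09 of alignments outside genes, 9.77% ± 0.807 not unique and 3.95% ± 0.0870 ambiguous in KO (SD, n = 4) and 7.16% ± 0.557, 8.41% ± 0.531 and 4.10% ± 0.191 in WT (SD, n = 7).

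The counts were fitted with edgeR 4.0.16 in R 4.3.3 (filterByExpr, TMM, quasi-likelihood test, two-sided, Benjamini-Hochberg over all tested genes, threshold 0.05) with batch and genotype over 11 libraries, with the batch by genotype interaction, and with the log2 library total over the 7 WT libraries. Standard errors are coefficients over the root of F. Within-batch ratios added 0.5 CPM. limma 3.58.1 (voom), DESeq2 1.42.0 and other normalizations, filters, covariates and left-out libraries were alternatives. The KO and slope fits, but not the interaction fit or the fit with the library total as a covariate, were tested on simulated counts before use. At an absolute log2 effect of 1 the KO fit called 39 of 100 changed genes, and at 2 it called 68 of 100. For the slope fit these counts were 0 of 100 at an absolute slope of 2 and 95 of 100 at 8. Among unchanged genes, 4 of 13175 and 10 of 11309 were called. Each library is 1 animal by its tag, and nothing else marks the animals as independent. The closest pair of libraries, WT M477 and M479, differed by a chi-square of 2.46 per degree of freedom, so none was treated as a copy. It was taken over genes with more than 20 reads summed over the pair. Depth ranged from 2.58 to 5.14 M reads in genes.

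The members and gene lists were chosen with earlier results of these data known. Genes named are all members past the threshold, Rpl22, Rpl22l1, the stalk genes, Rpsa, paralogue pairs and up to 3 genes per related list, and any other gene was named after its values were seen. Levels per coding length were planned and not computed, since no coding lengths were at hand. All 93 members had a RefSeq position. Promoter sequences are from RefSeq on GRCm38.p6. Some genes are not reported here.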

Additional observations from a re-analysis of the deposited data

Results flagged for a closer look

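Within groups of 4 to 7 libraries, 13 of the 54 sets of values examined held a library far from the others by Dixon's 95% limit. For independent sets chance gives about 1 in 20. These sets share the same libraries and include sums over the same genes, so the count cannot be set against that rate. WT M476 accounted for 7 of the 13. It had 15485 reads of the 93 genes, against 12774 to 13821 in the other WT libraries, 62.2 CPM of Rpl37a (others 38.6 to 46.2), 51.5 CPM of Rplp2 (others 32.6 to 36.2), 33.3 CPM of Rpl39 (others 17.7 to 23.5) and 116 CPM of Rps4l (others 62.8 to 80.7). The -ps loci took 0.00962% of its reads in genes (others 0.00329% to 0.00554%) and ambiguous alignments 4.52% of its alignments (others 3.93% to 4.10%).

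KO M390 stood apart from the other KO libraries in 2 genes called between the groups. It had 15.8 CPM of Rpl10a (others 2.88 to 4.79) and 46.1 CPM of Rpl37a (others 77.0 to 81.3), and both values lay within the WT range. KO F371 had 19.3 CPM of Rpsa (others 12.2 to 13.2) and 52.5 CPM of Rps4l (others 62.8 to 64.4), and KO M374 had 3.82% ambiguous alignments (others 3.98% to 4.00%). WT M386 had 9.21 CPM of Rpl3l (others 0.865 to 3.93).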

How the results depend on the processing

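The count of ribosomal protein genes called higher in KO was 5 and of those called lower 2. It became 8 higher without a batch term, 3 higher without a filter on low counts and also with limma-voom, 9 higher and 6 lower with the Wald test of DESeq2, 11 higher and 7 lower without batch 2, and 0 and 0 once the library total entered as a covariate. In the same order 12.0%, 5.49%, 6.02%, 18.1%, 21.7% and 0% of the tested ribosomal protein genes were called. For all tested genes the shares were 25.1%, 9.78%, 18.8%, 31.2%, 34.1% and 0%, against 24.4% in the main fit. Leaving out 1 library gave 1 (without WT M379 or KO M456) to 14 (without WT M476) higher and 0 to 7 lower, the 7 being without KO M390 or WT M386. Over these fits 2.43% (without KO M456) to 34.8% (without WT M386) of all tested genes were called. The cause was not tested. The median log2 fold change stayed between 0.02 and 0.12 and the median WT slope between -1.53 and -0.85 with a library left out, and no slope was called. Without a batch term the median fold change was 0.16, and with the library total as covariate it was -0.07, with 51 of the 83 genes below 0.

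The Rplp1 difference turned to -0.0171 with the library total as a covariate. WT slopes turned sign for Rpl15 with batch as a term (0.46), and with a library left out they ran from -1.43 to 0.0283 for Rpl15, -1.17 to 0.17 for Rpl27a and -0.28 to 0.39 for Rpl22. Of 264 recomputed values for 12 genes between KO and WT, 215 kept direction and side of the threshold, 38 lost it, 10 gained it and 1 turned. The tract share was 33.8% when it had to begin within 2 bases of the start and 32.4% with at least 8 pyrimidines. No paired analysis was possible because the animal tags differ between KO and WT.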
